A study of Homo sapiens with 12 samples.

Results

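OR4C45 was the single gene with an olfactory receptor symbol among the 14884 genes that the platform annotation names on this array. Members were taken as rows of the deposited table whose platform symbol consists of OR, a family number, a subfamily letter or letters and a member number, without the P that marks a pseudogene, with the highest-mean row kept per gene. This found 1 gene, measured by 1 transcript cluster (the array's unit that gathers the probes of a gene or transcript). RefSeq, in its annotation of GRCh38.p14, holds 417 symbols of that form, 390 of them protein-coding, and matching by gene identifier in place of symbol found the same 1. The other 37519 of the 53617 transcript clusters are unnamed here, and they may include further olfactory receptors. With 1 member, a distribution of receptor levels, bright exceptions within the family and a family-wide shift were not analysed here, and OR4C45 alone cannot stand for the family or set a background level for the array. RefSeq classes OR4C45 itself (Entrez gene 403257, chromosome 11) as a transcribed pseudogene, although its symbol has no P suffix, so the label of a receptor gene holds by name only.

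The arrays were Affymetrix Human Gene 2.0 ST arrays, and the cells were HEK293, an adenovirus-transformed human embryonic kidney line. One group of 6 arrays, control, came from cells transfected with AllStars Negative Control siRNA, and the other group of 6, mimic-1825, from cells transfected with Syn-hsa-miR-1825, a synthetic copy of the microRNA miR-1825. Both RNAs were used at 5 nM with the HiPerfect reagent, and RNA was isolated 24 h later. Both groups thus carry a transfected RNA and the reagent, and there are no untransfected arrays among the 12. The labels do not say whether replicates were separate cultures, so a p-value here weighs differences against the spread among these arrays alone, and that spread may be technical. The mature miR-1825 is shown because it is what sets the groups apart. It is given as RefSeq holds it, at chr20:32237830-32237847 on the plus strand of GRCh38.p14, with the seed (bases 2 to 8) in capitals.
hsa-miR-1825: uCCAGUGCccuccucucc

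Olfactory receptors are G protein-coupled receptors that detect odorants on the cilia of olfactory sensory neurons. Each such neuron usually expresses a single receptor allele, while the other receptor genes are held in silent chromatin. Receptor signals pass through the G protein subunit encoded by GNAL to the adenylyl cyclase encoded by ADCY3 and to cyclic nucleotide-gated channels. HEK293 cells are widely used as a host for receptors introduced on plasmids, where export to the cell surface is helped by accessory proteins such as RTP1 and RTP2. OR4C genes lie in a large receptor cluster near the centromere of chromosome 11. Of the 20 RefSeq genes nearest to OR4C45 in order along the chromosome, 10 on each side, 9 have olfactory receptor symbols and 15 are pseudogenes, and the protein-coding ones are OR4C13 and OR4C12. Of these 20, 1 is named on the array.

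OR4C45 lay near the low end of the array's scale in every sample. In control replicates 1 to 6 its log2 value was 3.05, 2.90, 2.59, 2.66, 2.73 and 2.91. In mimic-1825 replicates 1 to 6 it was 2.89, 2.99, 2.91, 2.85, 2.50 and 2.85. The highest array was control replicate 1 and the lowest mimic-1825 replicate 5, and the groups overlapped throughout. Of the 6 mimic arrays, 5 lay above the control mean. The other, mimic-1825 replicate 5, stood apart from the rest of its group.

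**Figure D1:**
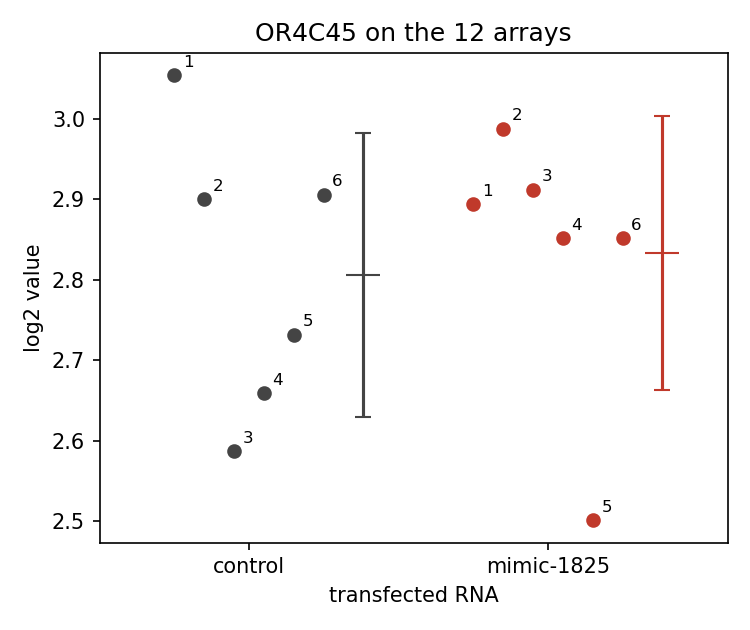
Log2 value of OR4C45 (vertical axis) on the 6 control and 6 mimic-1825 arrays, with each point labelled by its replicate number and the bar at the right of each group giving mean ± SD. The controls run from 2.59 to 3.05 and the mimic arrays from 2.50 to 2.99, with mimic-1825 replicate 5 the lowest.

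The mean over the 12 arrays was 2.82 ± 0.17 (log2 value, SD), with a median of 2.82 in controls and 2.87 after the mimic. Of all clusters, 5536 (10.3%) had a lower mean, against a median mean of 4.48. Within single arrays OR4C45 stood between the percentile 4.35 (mimic-1825 replicate 5) and 17.1 (control replicate 1) of the clusters. It was lower still among the named clusters, of which 3.60% had a lower mean, against 13.2% of the unnamed ones. Probes differ in brightness at equal RNA, and the files give no detection call, so this position on the scale is not an amount of RNA. Whether any OR4C45 transcript was present was not tested.

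Families read as silent outside their own tissues gave a frame for this position. Keratin-associated protein genes encode matrix proteins of the hair shaft. Their 84 named members, counted without an antisense RNA gene of the same name stem, had means from 2.40 to 8.34 with a median of 3.66, and 8 of them were lower than OR4C45. Vomeronasal receptor genes belong to another chemosensory receptor family. All 5 named members (one of them the pseudogene VN1R10P) had means from 2.66 to 4.21, below the median of all clusters, and 1 of the 5 was lower than OR4C45. OR4C45 thus lay inside the range of both families, toward the low end, while 6 of the 84 keratin-associated protein genes were among the brightest 25% of clusters (means of at least 6.29).

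**Figure D2:**
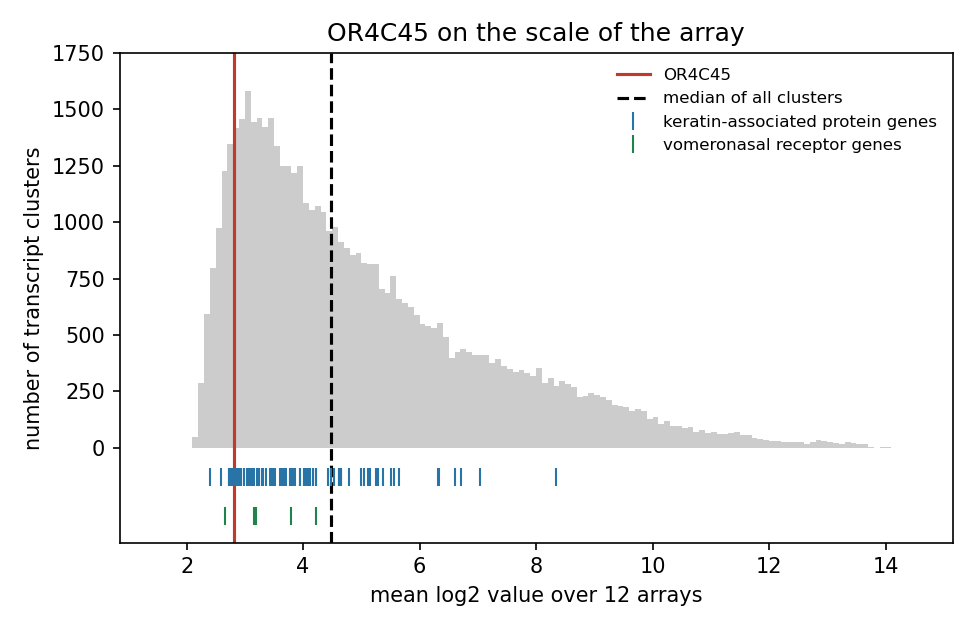
Histogram of mean log2 value over 12 arrays (horizontal axis) for the 53617 transcript clusters (vertical axis, number of clusters), with the red line at OR4C45 (2.82) and the dashed line at the median of all clusters (4.48). Ticks under the histogram mark the 84 keratin-associated protein genes (2.40 to 8.34) and the 5 vomeronasal receptor genes (2.66 to 4.21), and OR4C45 falls toward the low end of both.

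OR4C45 did not differ between mimic and control beyond the spread of the arrays. Its mean was 2.81 ± 0.18 in controls and 2.83 ± 0.17 after the mimic (log2 value, SD, n = 6 each). The difference, mimic minus control, was 0.03 with an SE of 0.09 and a 95% interval from -0.18 to 0.23 (limma adjusted p = 0.948 over all clusters; unadjusted p = 0.782). That interval spans 0.884-fold to 1.17-fold on the deposited scale, which can understate changes of RNA at its low end. The count of called members was therefore 0 of 1, by the adjusted or the unadjusted p. Of all clusters, 0.0112% passed the adjusted threshold of 0.05 and 10.8% had an unadjusted p under 0.05, so a count of 0 in 1 gene says little. The sign of the difference rested on single arrays: it was -0.017 without control replicate 3, -0.003 without control replicate 4 and -0.004 without mimic-1825 replicate 2. Without mimic-1825 replicate 5 it was 0.09 (limma adjusted p = 0.718).

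The spread of OR4C45 was like that of other clusters at its level. Its pooled within-group SD was 0.17. The 6842 other clusters with a mean within 0.25 log2 of it had a median SD of 0.14 with quartiles of 0.11 and 0.19, and 68.8% of them varied less. The median SD was 0.09 in the brightest 25% of clusters. Of these 6842 clusters 22.7% had a smaller absolute difference between the groups than OR4C45, leaving the sign aside. None of the 6842 passed the limma threshold, and 507 (7.41%) had an unadjusted p under 0.05. Their median difference was -0.02, with 2764 higher and 4078 lower after the mimic, so the small positive difference of OR4C45 had the less frequent sign at its level. Of the keratin-associated protein genes, 32 were on the higher and 52 on the lower side, and the median of their differences was -0.05. By limma 0 of them were called, while 3 lower and 1 higher reached an unadjusted p under 0.05. Over all clusters 10.8% reached that p and 46.6% were higher after the mimic. The count at that p is thus no more than the background. After quantile normalization and with arrays centred on their medians the median difference of the keratin-associated protein genes was -0.04. The 5 vomeronasal receptor genes had 3 on the higher and 2 on the lower side, with a median difference of 0.003. That median was 0.02 under both of these scalings. By limma 0 of the 5 were called, and 1, VN1R5, was lower at an unadjusted p under 0.05.

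The named genes nearest to OR4C45 along chromosome 11 were mostly low, a set chosen after the data were seen. None is adjacent to it: from 8 (SEPTIN7P11) to 26 (TRIM49B) other RefSeq genes lie in between. The 3 named genes before it in RefSeq order are FOLH1, which encodes the membrane glutamate carboxypeptidase PSMA, and the TRIM family genes TRIM64C and TRIM49B. Their means over 12 arrays were 2.93, 3.55 and 3.06. The 3 after it are SEPTIN7P11, LOC646813 and TRIM48, with means of 4.19, 2.53 and 2.96. All 6 lay below the median of all clusters (4.48), with SEPTIN7P11 nearest to it. The limma adjusted p of the difference between mimic and control ranged from 0.675 (TRIM64C) to 0.974 (TRIM48). Several of these genes have near-identical relatives that the same probes could detect, as do OR4C genes, so their assignment is uncertain.

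Genes of the signalling path that olfactory receptors use were measured in part. Here and below, a listed gene counts as measured if it has a named cluster, and the others may lie among the unnamed clusters. Of the 12 measured (of 23 on the list), 0 passed the limma threshold or had an unadjusted p under 0.05. Over all clusters those shares were 0.0112% and 10.8%, so none among 12 is near the background. Of the 12, 6 had higher and 6 lower means after the mimic, with a median difference of -0.01, as over all clusters (-0.01). Of the 12, 8 had means above the median of all clusters, among them the channel subunit genes CNGA2 (4.96) and CNGA4 (4.82). Those below it were the channel subunit gene CNGB1 (4.12), STOML3 (3.86) and the accessory genes RTP1 (3.81) and RTP2 (3.63). All 12 had higher means than OR4C45. GNAL, GNG13 and ANO2 are on the list but had no named cluster, so the 12 are not the whole path. By the rule for named genes, ADCY3 had a mean of 7.47, CAMK4, a calcium-calmodulin kinase gene, of 7.20, OMP of 6.78 and GNAS, which encodes the widely expressed relative of the olfactory G protein subunit, of 6.13. OMP encodes olfactory marker protein, and in RefSeq it overlaps CAPN5, so its cluster is no clear sign of that transcript. ADCY3 went from 7.48 ± 0.06 to 7.46 ± 0.11, CAMK4 from 7.17 ± 0.04 to 7.23 ± 0.09, OMP from 6.72 ± 0.20 to 6.84 ± 0.10 and GNAS from 6.16 ± 0.03 to 6.11 ± 0.05 (log2 value, SD, n = 6 each).

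Regulators of receptor choice are transcription factors, chromatin proteins and others that act on which receptor gene a neuron uses. They were brighter, and 0 of the 17 measured (of 18) passed with limma. At an unadjusted p under 0.05 there was 1, CBX3, a heterochromatin protein 1 gene. CBX3 had a mean of 9.34 ± 0.06 in controls and 9.48 ± 0.02 after the mimic (limma adjusted p = 0.267), and it is named here because of that count. Of the 17, 13 had higher and 4 lower means after the mimic, with a median difference of 0.03. In the brighter part of the array (clusters whose mean reached 4.48), where 16 of the 17 lie, 52.7% were higher after the mimic, the median difference was 0.01 and 13.1% had an unadjusted p under 0.05, so 1 of 17 at that p is no more than the background. The brightest were KDM1A, which encodes the histone demethylase LSD1, at 10.92, LBR, which tethers heterochromatin to the nuclear envelope, at 10.48, LDB1, an adaptor that bridges enhancers, at 9.47 and CBX5, another heterochromatin protein 1 gene, at 9.44. Their differences were 0.05, 0.03, 0.07 and -0.07, none past the threshold. Of the transcription factor genes on the list, LHX2 had a mean of 6.32, and the EBF family had means of 8.71 (EBF3), 7.09 (EBF2), 5.46 (EBF4) and 4.47 (EBF1, the dimmest of the 17).

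**Figure D3:**
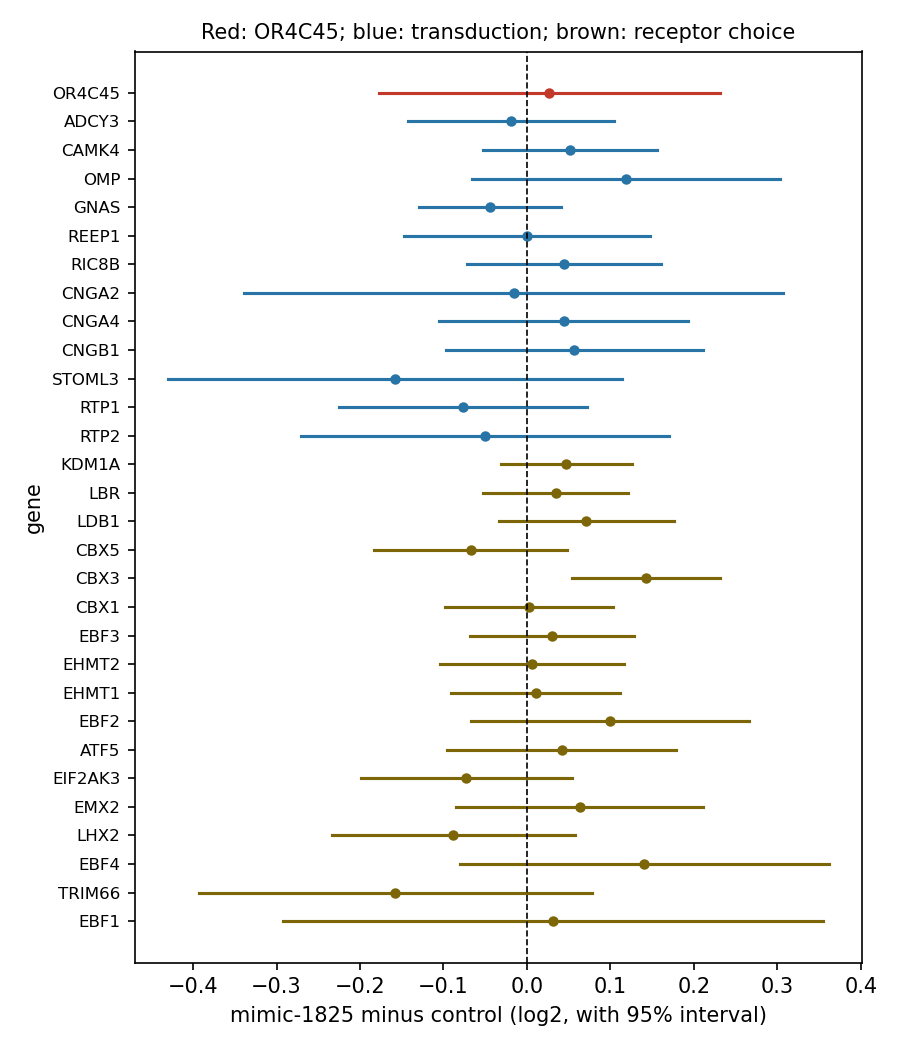
Difference between the group means, mimic-1825 minus control (horizontal axis, log2), with its 95% interval from limma, for OR4C45 (red), 12 transduction genes (blue) and 17 regulators of receptor choice (brown). The interval of OR4C45 runs from -0.18 to 0.23, and CBX3 is the one gene whose interval leaves out 0.

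The labelled cell line was checked against a short list of genes typical of HEK293 cells. Of 9 such genes 5 were measured (KRT18, VIM, LHX1, KRT8 and PAX2), and all 5 had means above 4.48, the median over all clusters. That did not set the line apart, since 4 of 6 measured markers of olfactory sensory neurons, 3 of 4 of epithelial cancer lines (EPCAM at 7.95) and 1 of 2 of fibroblasts (LUM at 5.71) were also above it, and 0 of 2 of leukocytes. Of the 8 markers of olfactory sensory neurons 6 were measured, and their average log2 value per array ran from 5.46 to 5.65 in controls and from 5.40 to 5.58 after the mimic. Leukocyte markers CD14 and LYZ averaged 3.21 to 3.60 in controls and 3.23 to 3.57 after the mimic, and fibroblast markers LUM and DCN 4.09 to 4.27 and 4.10 to 4.30. For markers of epithelial cancer lines, 4 of 5 measured, the ranges were 5.45 to 5.73 and 5.42 to 5.58. By limma 0 of the genes on these marker lists were called. KRT18 (9.74 in controls, 9.63 after the mimic) and CLDN7 (5.46 and 5.24) were lower at an unadjusted p under 0.05. Over all clusters 10.8% reached that p.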

How the data were processed

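The deposited log2 values, 1 per transcript cluster and array, come from Affymetrix Expression Console as run by the authors (source: the submitters' processing notes). The sources used here do not give its version, its background and normalization settings or the genome build. The log2 scale was read from the values, which run from 1.62 to 14.4 with array medians between 4.44 and 4.51. They were used as deposited. Clusters were named through the platform annotation and RefSeq gene identifiers (GRCh38.p14), which named 16098 of the 53617, and a gene with several clusters was represented by its highest-mean one. The member and the lists were chosen with earlier results of these data known.

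The comparison was mimic minus control in limma 3.58.1 under R 4.3.3 (lmFit and eBayes, two-sided, no trend, no block), with Benjamini-Hochberg adjustment over all clusters and a threshold of 0.05. The number of arrays limits the precision. The fit was run on simulated data with changes larger than those reported here, which does not test it at differences of this size. The rule for named genes took the 10 highest, 3 lowest and the 4 higher and 4 lower receptors by p, 10 receptors known outside the nose, and the 4 brightest genes of each pathway list. With 1 receptor named, the receptor parts all gave OR4C45, and 0 of the 10 receptors known outside the nose were measured under a name. Bitter taste receptors and beta-defensins, planned as further silent families, had 0 named clusters, and 6 of 14 housekeeping genes were measured, with means from 7.38 to 9.91. Alternatives were other scalings, a trend and robust prior, a filter, a replicate block and leaving out single arrays.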

Additional observations from a re-analysis of the deposited data

Results flagged for a closer look

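The highest and the lowest array were tested for a gap to the rest in 18 groups of 6 arrays (9 genes in both treatment groups). A gap was found in 2, while about 1 group in 20 would show one by chance. The 9 genes share the same arrays, so the groups are not independent, and these 2 cannot tell whether an array was aberrant. Mimic-1825 replicate 5 was the lowest mimic array for OR4C45, at 2.50 against 2.85 to 2.99 on the other 5. The same array was the lowest for CAMK4, at 7.06 against 7.22 to 7.29 on the other 5.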

How the results depend on the processing

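The difference of OR4C45 stayed on the same side of the limma threshold in all 16 alternative fits that hold it, with adjusted p from 0.718 to 0.995. It kept its sign in 13 of them and turned to -0.017, -0.003 and -0.004 without control replicate 3, control replicate 4 and mimic-1825 replicate 2, and over the 12 fits without single arrays it ranged from -0.017 to 0.093. The cause was not tested. It was 0.05 after quantile normalization and 0.04 with arrays centred on their medians. Its mean level after quantile normalization was 2.82. Its unadjusted p was above 0.05 in each of the 16. Of 136 alternative values for the 8 named list genes, 1 reversed: ADCY3, at -0.019, was 0.022 without mimic-1825 replicate 6 and ranged from -0.037 to 0.022 without single arrays. Of all clusters 6 passed the threshold, 13 among clusters at or above the median, 39 with a trend and robust prior and 0 with a replicate block, and 0 to 6 without single arrays.

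The replicate numbers were not taken as pairs. Deviations of same-numbered arrays correlated between -0.08 and 0.04, and 1 of 12 arrays correlated best with its own number. With the replicate block the difference of OR4C45 was 0.03 (adjusted p = 0.938). Centring on the receptor genes, the lowest-mean cluster per gene, pseudogenes added and rules for bright receptors were not run, since 1 receptor cluster is named and it is below the filter at the median.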
